A study of Mus musculus with 8 samples.

Results

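Liver sinusoidal endothelial cells line the capillaries of the liver, and 10 genes that mark them or serve their scavenging and vascular functions were followed in the livers of Western diet-fed mice with and without hepatocyte Mc1r. The genes, Stab1, Stab2, Lyve1, Clec4g, Fcgr2b, Pecam1, Kdr, Oit3, Dnase1l3 and Gpr182, were taken by symbol, and 10 of 10 were found among the 55487 genes of each count table. RNA sequencing was done on whole liver of 4 animals per genotype, control mice 154, 159, 181 and 193 and Mc1r LKO mice 141, 156, 157 and 182. Mc1r LKO mice carried Mc1r fl/fl together with Alb-Cre/+, and control mice were age-matched Mc1r fl/fl animals, so the floxed allele was shared by both groups. All mice were male and were 8 weeks old when they were put on the Western diet, which was given for 12 weeks. Alb-Cre is driven by the albumin promoter, which is active in hepatocytes, so the endothelial cells studied here were not the cells in which the deletion was directed.

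The sinusoidal endothelium differs from that of other capillaries in its open pores, its thin or missing basement membrane and its very high rate of endocytosis. It removes hyaluronan, modified lipoproteins, immune complexes and other waste from the blood through scavenger, lectin and Fc receptors. It is also a source of signals to its neighbours, among them Wnt ligands around the central vein, and it can lose its specialised features, a change called capillarization, in fatty and fibrotic liver.

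The total count of a liver was between 10773151 and 24763375 read pairs, and the genotypes differed by less than their spread (exact permutation test, two-sided, p = 0.8, smallest possible p 0.0286 with 4 mice against 4). The summed level of 5 hepatocyte genes was between 69213 and 101281 CPM (read counts scaled to a common library size), with Alb and Apoa1 among them, as in whole liver. Mc1r had 0 counts in 8 of 8 mice, which by counting error alone allows at most 3 counts (0.121 to 0.278 CPM), so the genotype labels could not be checked. A gene was tested with edgeR's quasi-likelihood test if it passed a filter on low counts, and 13400 genes did. No gene passed an adjusted p-value under 0.05 (0%), 901 genes (6.72%, of which 3.86% of all genes higher and 2.87% lower in Mc1r LKO mice) had an unadjusted p under 0.05, 5.31% also changed by at least 0.25 on the log2 scale, and 558 genes (4.16%) had levels that did not overlap between the genotypes.

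Promoter sequences of the mouse build GRCm38.p6 from RefSeq were found for 5 of the 10 genes, Stab1, Stab2, Clec4g, Fcgr2b and Kdr. The promoters of both stabilins, the scavenger receptors whose levels were weakly related across mice, and of Kdr, the endothelial growth factor receptor, are shown from 250 bases before to 50 bases after the start of the gene, 5′ to 3′ on the minus strand, on which all 3 genes lie. They are chr14:31168592-31168891 for Stab1, chr10:87007893-87008192 for Stab2 and chr5:75978406-75978705 for Kdr. Capitals mark matches to AGGAAG or GGAAGT, cores bound by ETS factors, which are active throughout endothelium, or to their reverse complements CTTCCT and ACTTCC.
Stab1: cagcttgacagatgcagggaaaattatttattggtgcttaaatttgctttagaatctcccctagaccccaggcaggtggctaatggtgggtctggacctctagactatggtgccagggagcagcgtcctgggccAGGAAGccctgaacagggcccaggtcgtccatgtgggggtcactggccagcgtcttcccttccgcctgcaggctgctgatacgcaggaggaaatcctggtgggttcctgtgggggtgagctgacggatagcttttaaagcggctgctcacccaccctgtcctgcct
Stab2: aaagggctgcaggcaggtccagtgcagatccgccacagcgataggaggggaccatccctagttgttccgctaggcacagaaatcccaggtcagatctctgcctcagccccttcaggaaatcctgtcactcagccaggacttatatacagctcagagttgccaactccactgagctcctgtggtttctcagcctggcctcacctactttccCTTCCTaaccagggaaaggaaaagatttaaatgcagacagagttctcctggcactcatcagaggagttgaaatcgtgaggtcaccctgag
Kdr: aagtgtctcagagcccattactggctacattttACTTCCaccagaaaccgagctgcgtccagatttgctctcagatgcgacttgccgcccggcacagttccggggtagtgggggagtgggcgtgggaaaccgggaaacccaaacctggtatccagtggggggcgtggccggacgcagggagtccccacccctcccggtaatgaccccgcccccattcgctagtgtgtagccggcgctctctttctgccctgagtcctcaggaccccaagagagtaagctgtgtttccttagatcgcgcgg
Each of these promoters held 1 match, which began 116 bases before the RefSeq start in Stab1, 40 in Stab2 and 217 in Kdr. The Ensembl annotation used for the counts starts at the same base for Stab1, but 83 bases further upstream for Stab2 and 3 for Kdr, so the Stab2 match lies inside the gene as counted. One of these 2 cores, which overlap in 5 of their 6 letters, was present on either strand in 5 of 5 member promoters and in 45.8% of 32851 mouse promoters of the same length. AGGAAG was in 3 of 5 member promoters (35.4% of all promoters), and GGAAGT in 2 of 5 (23.8%). The letters AGATAA or TTATCT, 1 form of the core bound by GATA factors, were in 0 of 5 member promoters and in 11.2% of all promoters. Other forms of this core, such as AGATAG or CTATCT, were not counted. A match of this length is a description of the letters in the window.

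All 10 genes passed the filter on low counts, with between 139 and 1243 read pairs per gene and mouse. In Mc1r LKO livers 8 of the 10 were lower and 2, Lyve1 and Oit3, were higher by their mean log2 fold change, and the median of the 10 was -0.14, against -0.011 for all 13400 genes tested, of which 52.1% were lower. For each gene the difference in mean CPM was smaller than the range of its levels within either genotype. Of the 10 genes, 0 passed an unadjusted p under 0.05 (6.72% of all genes did), and 0 had levels that did not overlap between the genotypes. Unadjusted p-values were between 0.202 and 0.561 and adjusted p-values between 0.858 and 0.938 (edgeR's quasi-likelihood test, Benjamini-Hochberg over 13400 genes). The 95% intervals of the fold changes lay within 2-fold for 10 of 10 genes and within 1.5-fold for 8 of 10, and together they ran from -0.62 (Stab1) to 0.95 (Lyve1) on the log2 scale. Differences inside these intervals could not be told from no difference with 4 mice per group. In whole liver RNA, fewer endothelial cells and less RNA per endothelial cell cannot be told apart, and this holds for every level given here.

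**Figure D1:**
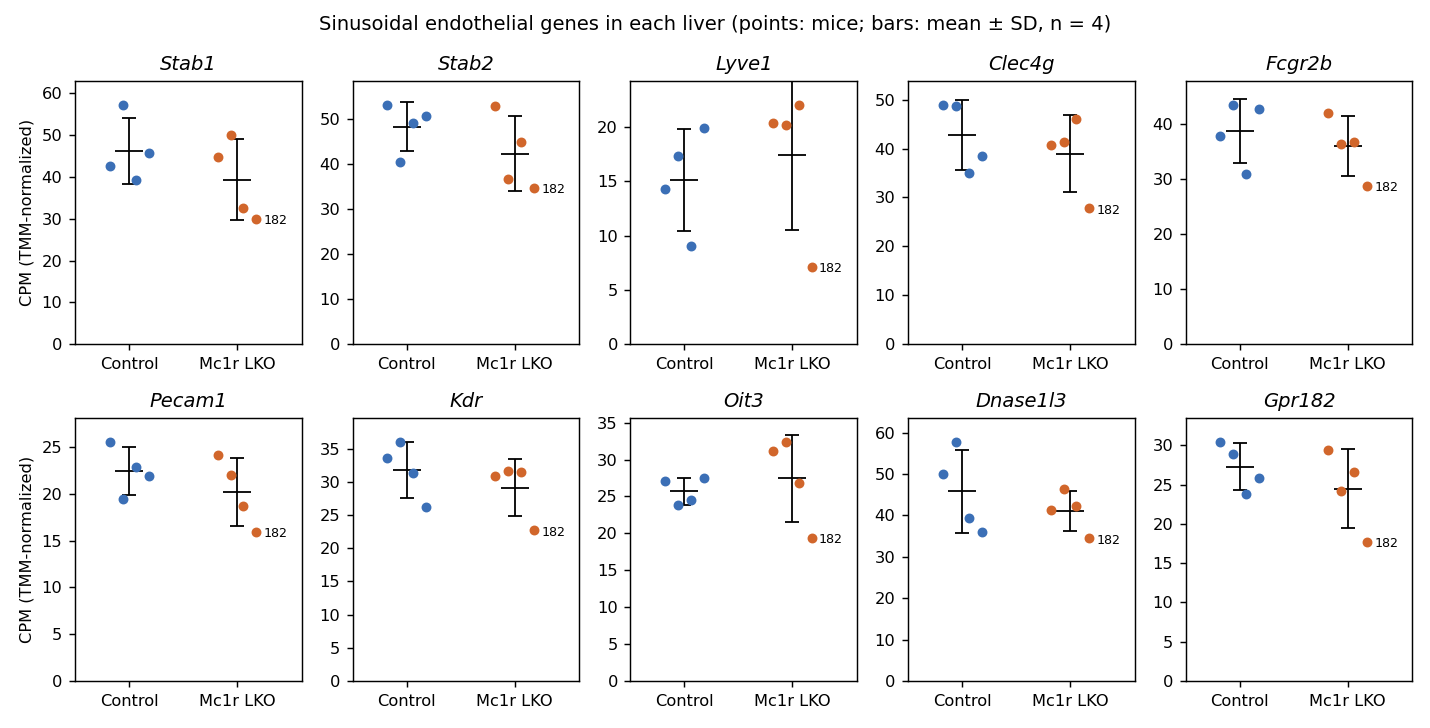
TMM-normalized CPM of the 10 genes (one panel each, axis from 0) in control and Mc1r LKO livers, with a point for each mouse and bars for the mean ± SD of 4 mice. The genotypes overlap in every panel, and mouse 182 is the lowest point of its panel for 10 of 10 genes.

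Among the scavenger receptors, Stab1 (ENSMUSG00000042286) encodes stabilin-1, which takes up modified lipoproteins and matrix fragments and is also made by some macrophages. Its 58 exon blocks span chromosome 14 from 31139013 to 31168641 in GRCm38, the build of all positions given here. Its level was 42.6, 57.2, 39.2 and 45.7 CPM in control mice 154, 159, 181 and 193, and 44.7, 50.0, 32.6 and 30.0 CPM in Mc1r LKO mice 141, 156, 157 and 182. Mice 157 and 182 lay below every control mouse while mice 141 and 156 lay within the control range. Control mice averaged 46.2 ± 7.81 CPM and Mc1r LKO mice 39.3 ± 9.60 CPM (mean ± SD, n = 4 each), and the log2 fold change was -0.23 (SE 0.18, edgeR adjusted p = 0.862). This was the lowest fold change of the 10 genes, and its interval, from 0.649-fold to 1.12-fold, included no change.

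Stab2 (ENSMUSG00000035459; chromosome 10 from 86841198 to 87008025, 72 exon blocks) encodes stabilin-2, the main receptor by which the liver clears hyaluronan from the circulation. It had 53.1, 40.3, 49.0 and 50.7 CPM in the control mice and 52.9, 36.6, 44.8 and 34.7 CPM in the Mc1r LKO mice, in the same order of mice as for Stab1. Control mouse 159 and Mc1r LKO mouse 156 were low for Stab2, although they had the 2 highest levels of Stab1. The means were 48.3 ± 5.54 and 42.3 ± 8.31 CPM (SD, n = 4 each), and the log2 fold change was -0.19 (SE 0.14, edgeR unadjusted p = 0.202 and adjusted p = 0.858). Without Mc1r LKO mouse 141 the log2 fold change was -0.31 with an unadjusted p of 0.0381 (edgeR), and it did not pass after adjustment. In that fit 688 of 13718 genes passed an unadjusted p under 0.05.

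Lyve1 (ENSMUSG00000030787; chromosome 7 from 110850607 to 110863239, 6 exon blocks), a hyaluronan receptor shared with lymphatic vessels and some macrophages, was the most variable of the 10 genes. Its levels were 14.2, 17.3, 9.01 and 19.9 CPM in control mice and 20.3, 20.1, 22.0 and 7.10 CPM in Mc1r LKO mice. The highest mouse had 3.10 times the level of the lowest, whereas this ratio was between 1.51 and 1.91 for the other 9 genes. Both genotypes contained 1 low mouse, control mouse 181 and Mc1r LKO mouse 182, and 3 of the 4 Mc1r LKO mice were above all control mice. The log2 fold change of 0.20 (SE 0.34) had the widest interval, from 0.685-fold to 1.93-fold, with an adjusted p of 0.938 (edgeR). It rose to 0.47 without mouse 182 (unadjusted p = 0.0544, edgeR), and with 1 surrogate variable in the fit the unadjusted p was 0.00852 and the adjusted p 0.324 (edgeR). In the fit with the surrogate variable, 1422 of 13400 genes passed an unadjusted p under 0.05. Genes of lymphatic endothelium with little expression elsewhere in liver were near 0. Pdpn had 0 counts in 4 of 8 mice and at most 0.465 CPM, and Mmrn1 had at most 0.353 CPM. Ccl21a had 0 counts in 8 of 8 mice, and whether its reads were lost to similar gene copies was not tested. With Flt4 and Reln, which were also listed as sinusoidal and stellate cell genes, the lymphatic list summed to 67.0 to 85.2 CPM in control mice. In Mc1r LKO mice this sum was 55.2 to 90.5 CPM.

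Clec4g (ENSMUSG00000074491; chromosome 8 from 3707064 to 3720651) encodes the C-type lectin LSECtin, which binds glycoproteins and cells in the sinusoid. Levels were 48.9, 48.6, 35.0 and 38.4 CPM in control mice and 40.7, 41.4, 46.0 and 27.7 CPM in Mc1r LKO mice. Apart from mouse 182, the Mc1r LKO mice lay inside the control range, and the log2 fold change of -0.13 (SE 0.17) became 0.0079 without that mouse. Fcgr2b (ENSMUSG00000026656; chromosome 1 from 170958617 to 170976547), the inhibitory Fc receptor by which sinusoidal endothelium removes small immune complexes, is also carried by macrophages and B cells. It measured 37.7, 43.4, 30.8 and 42.6 CPM in control mice and 42.0, 36.3, 36.8 and 28.8 CPM in Mc1r LKO mice, again with only mouse 182 outside the control range. The means were 38.7 ± 5.78 and 36.0 ± 5.46 CPM (SD, n = 4 each), and the log2 fold change was -0.10 (SE 0.14).

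Of the 2 genes that sinusoidal endothelium shares with endothelium in general, Pecam1 (ENSMUSG00000020717; chromosome 11 from 106654217 to 106750628) encodes an adhesion molecule of cell junctions. It had 25.6, 19.4, 22.8 and 21.9 CPM in control mice and 24.1, 22.0, 18.7 and 15.9 CPM in Mc1r LKO mice, so that mice 157 and 182 were below all control mice by a margin that was under 1 CPM for mouse 157. Kdr (ENSMUSG00000062960; chromosome 5 from 75932827 to 75978458) encodes the main signalling receptor for VEGF-A, which hepatocytes secrete and on which the open pores of the sinusoid depend. It measured 33.6, 36.1, 31.3 and 26.3 CPM in control mice and 30.9, 31.6, 31.4 and 22.7 CPM in Mc1r LKO mice. Mc1r LKO mice 141, 156 and 157 were nearly identical and sat inside the control range, and mouse 182 was below it. The log2 fold change was -0.16 (SE 0.14) for Pecam1 and -0.12 (SE 0.13) for Kdr, with edgeR adjusted p-values of 0.888 and 0.907.

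Of the remaining genes, Oit3 (ENSMUSG00000009654; chromosome 10 from 59422958 to 59441778), a secreted zona pellucida domain protein, had 27.1, 23.8, 24.5 and 27.5 CPM in control mice and 31.2, 32.4, 26.8 and 19.4 CPM in Mc1r LKO mice. The control mice were close together, with a coefficient of variation of 7.13%, while the Mc1r LKO mice fell on both sides of them with a coefficient of 21.4%. Its log2 fold change was 0.09 (SE 0.15) with all mice and 0.23 without mouse 182 (edgeR unadjusted p = 0.0487, not adjusted). In the fit without mouse 182, 1095 of 13674 genes passed an unadjusted p under 0.05. Dnase1l3 (ENSMUSG00000025279; chromosome 14 from 7964533 to 7994573) encodes a secreted nuclease that digests chromatin in the circulation and is also made by some myeloid cells. It measured 50.0, 57.8, 39.3 and 36.1 CPM in control mice and 41.2, 46.3, 42.3 and 34.5 CPM in Mc1r LKO mice, so the control mice were the more widely spread. Gpr182 (ENSMUSG00000058396; chromosome 10 from 127747276 to 127751732), an atypical chemokine receptor of sinusoidal and lymphatic endothelium, had 30.5, 28.9, 23.8 and 25.8 CPM in control mice and 29.5, 24.2, 26.5 and 17.7 CPM in Mc1r LKO mice. Log2 fold changes were -0.15 (SE 0.15) for Dnase1l3 and -0.16 (SE 0.15) for Gpr182, and only mouse 182 was below the control mice for either gene. Reads were counted by strand, and no exon of the 10 genes was shared with a neighbour on the same strand.

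**Figure D2:**
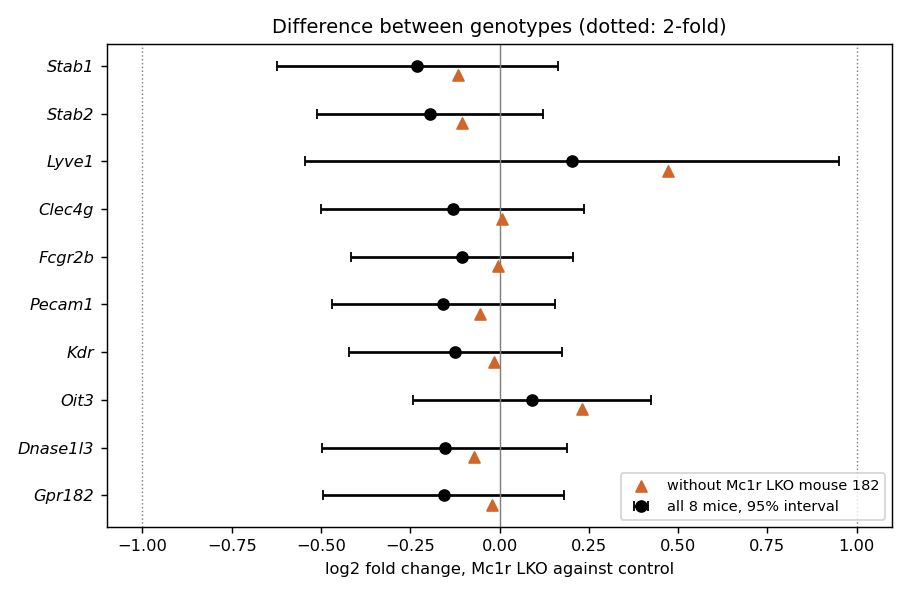
Log2 fold change of the 10 genes, Mc1r LKO against control, as black points with 95% intervals from edgeR's quasi-likelihood fit to 8 mice, with dotted lines at a 2-fold difference. Orange triangles are the values without Mc1r LKO mouse 182, which lie to the right of the black points for 10 of 10 genes, and every interval crosses 0.

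Levels can be compared between genes only per length, as CPM per kilobase of annotated exon. On that scale Clec4g was the most abundant of the 10 with 16.6 ± 2.93 (mean and SD over 8 mice), followed by Oit3 at 9.53 ± 1.48, Dnase1l3 at 8.44 ± 1.5, Gpr182 at 6.54 ± 1.04 and Fcgr2b at 6.44 ± 0.933. Lyve1 at 5.57 ± 1.92, Stab2 at 5.17 ± 0.832, Stab1 at 4.16 ± 0.864, Pecam1 at 3.42 ± 0.502 and Kdr at 3.38 ± 0.463 completed the order. Neighbours in this order kept their places in 8 of 8 mice for Clec4g over Oit3, Dnase1l3 over Gpr182 and Stab1 over Pecam1. The other 6 neighbouring pairs changed places in 2 to 4 of the 8 mice, and Gpr182 and Fcgr2b, nearly equal in level, were each the higher in 4 mice.

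The ratio of the 2 stabilins per length varied between mice within a genotype. Stab1 relative to Stab2 was 0.683, 1.21, 0.680 and 0.768 in control mice 154, 159, 181 and 193 and 0.720, 1.16, 0.619 and 0.735 in Mc1r LKO mice 141, 156, 157 and 182. One mouse of each genotype had more Stab1 than Stab2 per length, and the other 6 had less. The means, 0.834 ± 0.251 in control and 0.809 ± 0.241 in Mc1r LKO mice (SD, n = 4 each), differed by less than this spread (exact permutation test, two-sided, p = 0.8). The summed level of 12 Kupffer cell genes, with Clec4f and Vsig4 as the defining ones, was 454, 1019, 414 and 683 CPM in the control mice and 433, 627, 474 and 297 CPM in the Mc1r LKO mice. Mice 159 and 156 were thus also the highest of their genotypes for this sum. Control mouse 193, at 683 CPM, lay above mouse 156 for the sum but had a ratio of only 0.768. The part of macrophage RNA in the ratio was not tested.

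**Figure D3:**
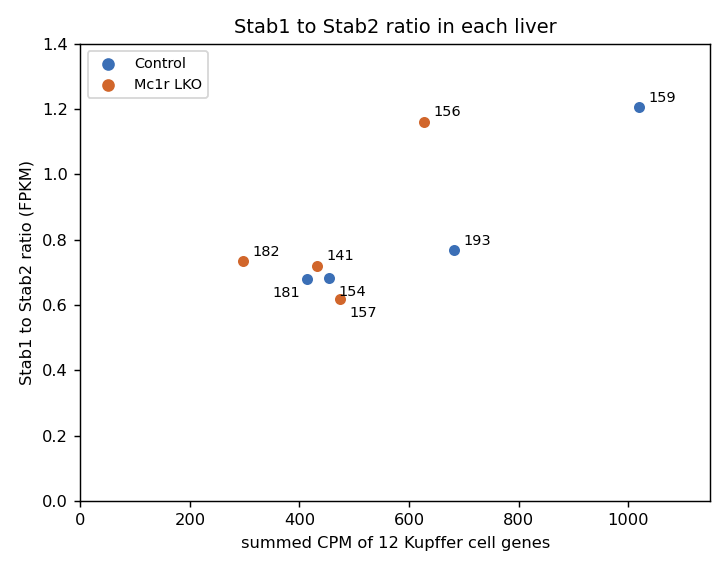
Ratio of Stab1 to Stab2 (each as CPM per kilobase, axis from 0) against the summed CPM of 12 Kupffer cell genes, with a point for each mouse, labelled with its number and coloured by genotype. Control mouse 159 and Mc1r LKO mouse 156 have ratios of 1.21 and 1.16, and the other 6 mice lie between 0.619 and 0.768.

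One liver stood apart for these genes and for many others. Mc1r LKO mouse 182 had the lowest level of 10 of 10 genes and of 26 of 33 pan-endothelial genes. Of all 13400 genes it was the lowest mouse for 21.7% and the highest for 20.2%, the largest share of the 8 mice on either side. On the log2 scale its levels were lower than the mean of the other 7 mice by 0.56 on average over the 10 genes, with differences from -0.36 to -1.24. The corresponding averages of the other 7 mice were between -0.15 (control mouse 181) and 0.18 (control mouse 159). The same liver had the highest summed level of hepatocyte genes, 101281 CPM, against 76192 to 79634 CPM in the other Mc1r LKO mice and 69213 to 87725 CPM in control mice. It also had the lowest Kupffer cell sum and the lowest summed level of 13 stellate cell genes, 466 CPM, where control mice ranged from 479 to 837 CPM. Stellate cell genes such as Lrat and Dcn mark the pericytes that lie beside the sinusoidal endothelium, and 0 of 13 passed an unadjusted p under 0.05. Its total of 21491021 counts was within the range of the others, and its TMM factor of 0.911 was the lowest of the 8. Without mouse 182, 7 of the 10 genes were lower and 3 higher in Mc1r LKO mice, and the median log2 fold change was -0.018, against -0.015 for all genes in that fit. With each other mouse left out this median was between -0.19 and -0.055, the latter without control mouse 159.

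**Figure D4:**
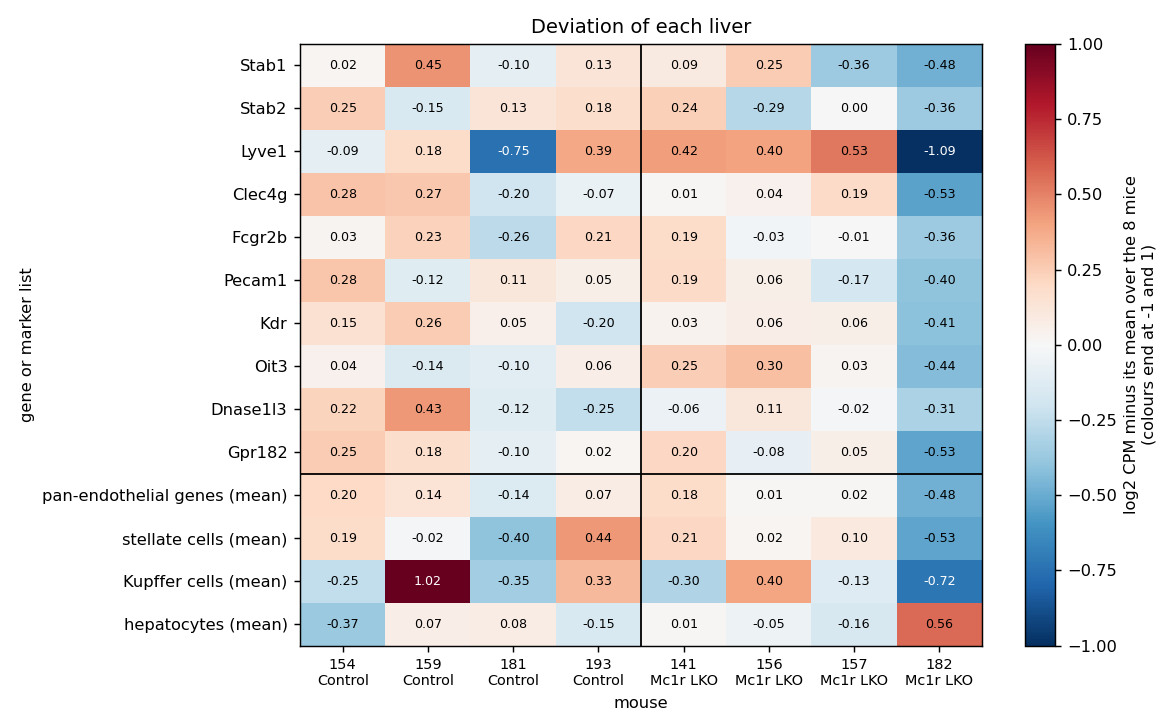
Deviation of log2 CPM in each mouse (columns, by genotype) from its mean over the 8 mice for the 10 genes and, under the line, for the mean of 4 marker lists, with red for higher and blue for lower. The column of mouse 182 is blue for 10 of 10 genes, from -0.31 (Dnase1l3) to -1.09 (Lyve1), and for pan-endothelial, stellate and Kupffer cell genes, and red for hepatocyte genes at 0.56.

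Over all 8 mice the levels of the 10 genes were mostly positively related, and this rested largely on mouse 182. Over the 45 pairs of genes the median Pearson r of log2 CPM across 8 mice was 0.57, with 44 of 45 positive. By exact permutation tests over the 8 mice 15 pairs had an unadjusted p under 0.05 and 0 passed after adjustment over the 45 pairs. Without mouse 182 the median r was 0.13 with 28 pairs positive, and without the 2 mice farthest from the median of the first gene of each pair it was -0.024 with 21 positive. Kdr and Dnase1l3 were the 1 pair that passed by rank correlation after adjustment, with r = 0.883 (exact permutation p = 0.00315, adjusted 0.100) and Spearman's rho = 0.976 (exact permutation p = 0.000397, adjusted 0.0179), and r was 0.947 without mice 182 and 193. Stab1 and Stab2, despite their related proteins and shared cell type, showed r = 0.141 (exact permutation p = 0.736, adjusted 0.753) and rho = 0.0714 (p = 0.882, adjusted 0.902, exact permutation), and r = -0.720 without mice 182 and 157. Gpr182 had the highest mean r with the other 9 genes, 0.73, and Stab2 the lowest, 0.38.

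Markers common to endothelium gave a reference for the amount of endothelial RNA in each liver. Of 33 pan-endothelial genes 9 were higher and 24 lower in the knockout livers, and their median log2 fold change was -0.16, close to that of the 10 sinusoidal genes. Without mouse 182 this median was -0.0075, and with each other mouse left out it was between -0.20 and -0.087. In this list 1 gene (3.03%, against 6.72% of all genes tested) passed an unadjusted p under 0.05, Sox17, an arterial transcription factor at low level. It had 3.36 ± 1.00 CPM in control and 1.80 ± 0.681 CPM in Mc1r LKO livers (SD, n = 4 each, log2 fold change -0.91, edgeR unadjusted p = 0.0207 and adjusted p = 0.734). Cdh5, the endothelial cadherin, and Tie1, an endothelial receptor kinase, had log2 fold changes of -0.16 and -0.23. When each of the 10 genes was expressed relative to the mean log2 CPM of the 33 genes, the genotypes overlapped for 10 of 10, and the mean difference, Mc1r LKO minus control, was between -0.11 for Stab1 and 0.27 for Lyve1. The values of Oit3 were 1.49, 1.37, 1.69 and 1.65 in control mice and 1.72, 1.95, 1.67 and 1.70 in Mc1r LKO mice, a difference in means of 0.21 on the log2 scale with 1 of the 4 Mc1r LKO mice inside the control range. The other 7 genes differed by between -0.067 (Stab2) and 0.032 (Fcgr2b).

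Scaling to the pan-endothelial genes narrowed the spread between mice for 10 of 10 genes, to an unequal extent. Gpr182 was almost constant relative to them, between 1.52 and 1.66 on the log2 scale in the 8 mice, with an SD of 0.055 against 0.25 before scaling. For Clec4g the SD fell from 0.27 to 0.13 and for Fcgr2b from 0.22 to 0.11. Stab2 and Dnase1l3 kept most of their spread, with SDs of 0.20 after scaling against 0.24 and 0.25 before. Lyve1 remained the most variable, from 0.26 in both control mouse 181 and Mc1r LKO mouse 182 to 1.38 in Mc1r LKO mouse 157. Relative to the pan-endothelial genes, mouse 182 was no longer the lowest mouse for any of the 10 genes. No other marker list was used as a reference. Mouse 182 deviated by -0.48 on the log2 scale for pan-endothelial genes, by -0.53 for stellate and by -0.72 for Kupffer cell genes. Whether the narrowing is particular to endothelial genes was not tested.

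**Figure D5:**
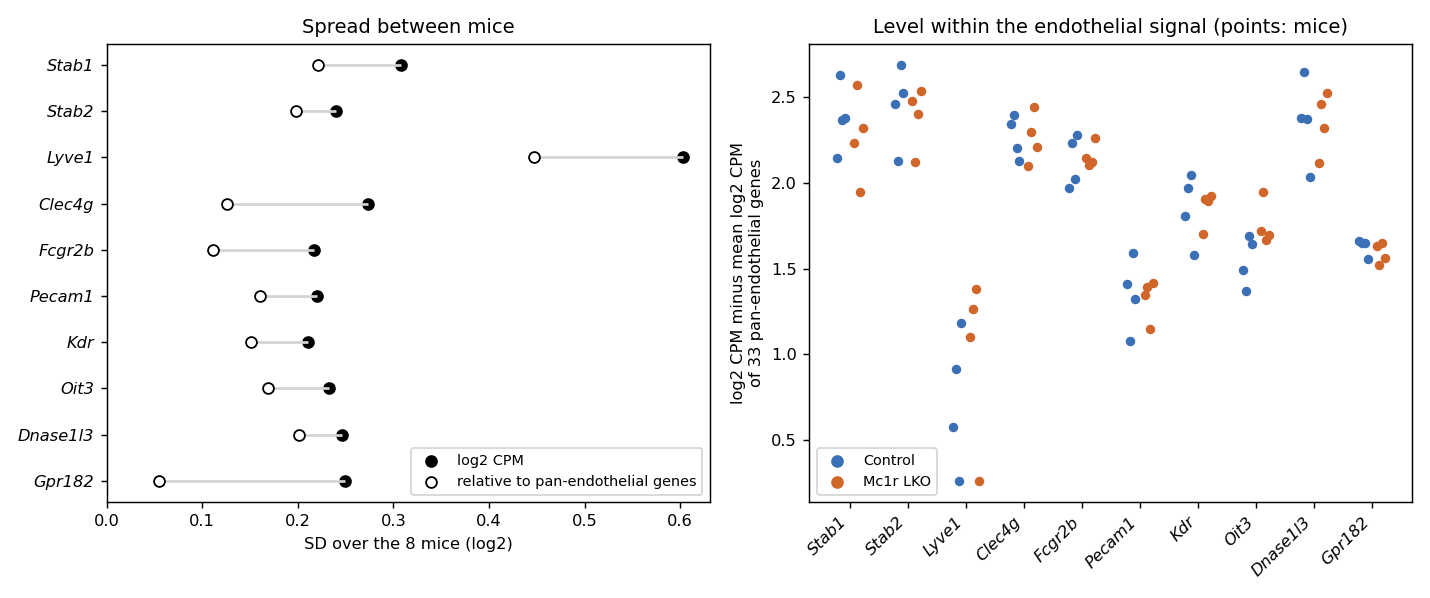
Left, SD of each of the 10 genes over the 8 mice on the log2 scale, before (filled) and after (open) subtracting the mean log2 CPM of 33 pan-endothelial genes. Right, the resulting values in each mouse, coloured by genotype, in which Gpr182 spans 0.14 and Lyve1 1.12 on the log2 scale.

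The genes whose levels followed the mean of the 10 most closely over the 8 mice were Ldb2, Slc16a7, Pnldc1, Flt4 and Slc43a3, with Pearson r between 0.983 and 0.990 (chosen as the 5 highest of 13390 genes, hence with no test). Without mouse 182 their r over 7 mice was between 0.938 and 0.964. The median r of all other genes was 0.015, with quartiles at -0.45 and 0.48, so that high values of either sign were common among the genes of these livers. Flt4 encodes the VEGF-C receptor of sinusoidal and lymphatic endothelium, and it was highest in control mouse 159 (33.4 CPM) and lowest in mouse 182 (17.9 CPM). Pan-endothelial genes had a median r of 0.76, and 31 of 33 were positive, with Cdh5 at 0.97 and the sphingosine phosphate receptor S1pr1 at -0.90. The median r was 0.70 for stellate cell genes, 0.68 for Kupffer cell genes and -0.72 for hepatocyte genes.

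Further genes of the sinusoidal endothelium were compared as a list. Of 18 such genes 17 were tested, 8 higher and 9 lower, with a median log2 fold change of -0.062. The sign of this median turned when 1 mouse was left out, to 0.092 without control mouse 154 and to 0.047 without Mc1r LKO mouse 182. In this list 1 gene (5.88%, against 6.72% of all genes tested) passed an unadjusted p under 0.05, Bmp2, an endothelial signal that acts on iron handling in hepatocytes. It had 16.3, 10.2, 10.4 and 11.5 CPM in control mice and 16.5, 15.2, 13.9 and 16.6 CPM in Mc1r LKO mice, with a log2 fold change of 0.36 (SE 0.16, edgeR unadjusted p = 0.0475, adjusted p = 0.738). The genotypes overlapped because control mouse 154 was as high as the Mc1r LKO mice, and mouse 182, the lowest for all 10 sinusoidal genes, was the highest here. The mannose receptor Mrc1, another scavenger receptor of this endothelium and of macrophages, had a log2 fold change of -0.28 (edgeR unadjusted p = 0.142).

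Endothelial cells differ along the sinusoid, and genes of both ends were compared. Of 7 genes of the pericentral end, 2 were higher and 5 lower, and 0 passed an unadjusted p under 0.05. Their summed level was 40.9, 33.3, 32.5 and 33.8 CPM in control mice 154, 159, 181 and 193 and 29.0, 29.6, 32.3 and 31.7 CPM in Mc1r LKO mice 141, 156, 157 and 182. The genotypes did not overlap, though control mouse 181 and Mc1r LKO mouse 157 were nearly equal. The difference in means, 35.1 ± 3.89 against 30.6 ± 1.61 CPM (SD, n = 4 each), gave p = 0.0286 by a two-sided exact permutation test, the smallest possible, and p = 0.514 after adjustment over the 18 list sums compared. With library size alone or with upper quartile normalization in place of TMM the genotypes overlapped and p was 0.0571 (exact permutation test). With any 1 mouse left out the genotypes still did not overlap. In these tests of groups of unequal size, p was between 0.0571 and 0.0857 without mouse 154, 141, 156, 157 or 182 (exact permutation test). It was 0.0286 without mouse 159, 181 or 193 (same test). Without control mouse 154 the difference in means fell by over 1.5 times, from -4.48 to -2.44 CPM. The largest contributions came from Lhx6, a LIM homeobox factor, at 11.9 ± 1.71 and 9.89 ± 1.25 CPM (log2 fold change -0.26), and Rspo3, the R-spondin that strengthens Wnt signalling around the central vein, at 8.08 ± 1.64 and 6.20 ± 1.47 CPM (-0.39). The Wnt ligands Wnt2 and Wnt9b, which sustain the pericentral programme of hepatocytes, had log2 fold changes of -0.15 and 0.25 at 0.444 to 3.63 CPM. The log2 fold change was -0.08 for Kit, the stem cell factor receptor, 0.12 for Thbd, thrombomodulin, and -0.33 for the cadherin Cdh13.

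Of 8 genes of the periportal end 1 was higher (Mecom, lower with library size alone) and 7 lower, with a median log2 fold change of -0.17, or -0.020 without mouse 182 and -0.31 without mouse 141. Itga9, an integrin subunit, was the 1 gene of the 8 (12.5%, against 6.72% of all genes tested) with an unadjusted p under 0.05. Its level was 21.6, 21.2, 17.3 and 24.2 CPM in control mice and 16.9, 14.3, 19.6 and 12.4 CPM in Mc1r LKO mice (log2 fold change -0.41, SE 0.16, edgeR unadjusted p = 0.0236, adjusted p = 0.734). Mouse 157 lay inside the control range. The log2 fold change was -0.26 for the Notch ligand Dll4, -0.15 for the arterial ephrin Efnb2, -0.19 for the matrix protein Ltbp4, -0.30 for the scavenger receptor Msr1, which macrophages share, and between -0.09 and 0.02 for Ntn4, Adgrg6 and Mecom. The periportal sum was lowest in mouse 182, at 64.4 CPM, against 85.6 to 105 CPM in the other Mc1r LKO mice and 87.6 to 120.0 CPM in control mice.

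Kdr acts with other VEGF receptors and upstream of Notch, and 19 of 21 genes of this pathway were tested, with 5 higher and 14 lower. Shb, an adaptor protein that binds the activated receptor and is present in many cell types, had an unadjusted p under 0.05. It was the 1 such gene of the list (5.26%, against 6.72% of all genes tested). It had 29.3, 22.2, 24.8 and 27.4 CPM in control mice and 36.8, 32.9, 32.8 and 44.9 CPM in Mc1r LKO mice. Each Mc1r LKO mouse was above each control mouse, as was the case for 2.63% of all genes tested, with a log2 fold change of 0.50 (SE 0.13, edgeR unadjusted p = 0.0026, adjusted p = 0.734). The ligand Vegfa, which hepatocytes make, was at 154 ± 27.8 CPM in control and 134 ± 19.3 CPM in Mc1r LKO livers (SD, n = 4 each, log2 fold change -0.20, edgeR unadjusted p = 0.211). Flt1, the decoy-like receptor for the same ligand, had a log2 fold change of 0.12. Per length, Kdr exceeded Flt1 5.05 ± 1.36 times in control and 4.13 ± 0.763 times in Mc1r LKO mice. The genotypes overlapped for this ratio, and the difference gave p = 0.429 (two-sided exact permutation test).

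Genes of capillarization and activation, among them the endothelial marker Cd34 and the von Willebrand factor gene Vwf, were compared because sinusoidal endothelium can gain them in diseased liver. Of 17 genes 15 were tested, of which 1 was higher and 14 were lower in Mc1r LKO livers (median log2 fold change -0.27). The median was -0.044 without Mc1r LKO mouse 182 and -0.071 without control mouse 193. Ly6a, a surface antigen of activated endothelium and of lymphocytes, was the 1 gene (6.67%, against 6.72% of all genes tested) with an unadjusted p under 0.05. Its 20.7 CPM in control mouse 159 exceeded the 6.22 to 9.09 CPM of the other control mice, and Mc1r LKO mice had 3.60 to 6.79 CPM (log2 fold change -1.05, SE 0.39, edgeR unadjusted p = 0.0220, adjusted p = 0.734). Without mouse 159 its log2 fold change was -0.52 (edgeR unadjusted p = 0.0711). Cd34 had a log2 fold change of -0.02 and Vwf of -0.34 (edgeR unadjusted p = 0.0554).

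Kupffer cells occupy the same sinusoids and share several of the scavenger receptors described here, so their markers were compared in the same livers. Of 12 genes 12 were lower in Mc1r LKO livers (median log2 fold change -0.41), and 1 (8.33%, against 6.72% of all genes tested) passed an unadjusted p under 0.05. This was the receptor gene Csf1r at 70.8 ± 33.8 CPM in control and 41.4 ± 11.4 CPM in Mc1r LKO livers (SD, n = 4 each, edgeR unadjusted p = 0.0375, adjusted p = 0.734). The summed level ranged from 414 to 1019 CPM in control and from 297 to 627 CPM in Mc1r LKO mice and the means differed by less than this spread (two-sided exact permutation test, p = 0.314). With control mouse 159 left out, the median of the list went from -0.41 to -0.11 (-0.65 without Mc1r LKO mouse 156) and Csf1r went from -0.77 to -0.45 on the log2 scale (edgeR unadjusted p = 0.146). Clec4f and Vsig4 had log2 fold changes of -0.45 and -0.40. Stab1, Fcgr2b and Lyve1 can be expressed by macrophages as well as by endothelium, and the part of macrophage RNA in their levels was not tested.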

How the data were processed

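Liver RNA sequencing of 4 control and 4 Mc1r LKO mice was analysed. The authors trimmed reads with Trim Galore 0.6.6, aligned them with STAR 2.7.6a and counted read pairs per gene with featureCounts 2.0.1 (Ensembl release 102, strand option 2), and deposited whole-number counts without normalization for each mouse. Per the file headers the build is GRCm38, whereas the methods write GRCh38. Symbols were found for 55141 of 55487 genes. The pair of mice of one genotype most alike differed beyond sampling noise (chi-square per degree of freedom 11.9).

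From the deposited counts, genes kept by filterByExpr (minimum count 10, minimum total 15) entered a TMM-normalized quasi-likelihood fit in edgeR 4.0.16 under R 4.3.3, and p-values were adjusted by Benjamini-Hochberg over 13400 genes. CPM values are TMM-normalized, and log2 CPM has a prior count of 2. In simulated counts for this comparison (13191 genes) the test called 82 of 100 genes changed 2-fold and 100 of 100 changed 4-fold. The changed genes had mean counts over 100, genes were drawn independently, and no shift of a whole liver was simulated. Recovery in the real livers may therefore be lower. The mouse is the replicate. The 10 genes and all lists were chosen with earlier results of these data known. Named were the 10 genes, the genes of other lists with unadjusted p under 0.05 (at most 4 a list), all pericentral and periportal genes, the first 2 genes of each marker list, and the 5 genes most like the mean of the 10. Flt1, Vegfa, Mrc1, S1pr1, Cd79b, Gp1bb, Ighm and Ccl21a were named after their values were seen. Alternatives were DESeq2 1.42.0, limma-voom (limma 3.58.1), the edgeR likelihood ratio test, RLE, upper quartile and no normalization, no filter beyond 1 count or 10 counts in every mouse, robust dispersion, 1 surrogate variable (sva 3.50.0), and each mouse left out. Leaving out mouse 182 in correlations was chosen after seeing the data. No batch is named for these mice. Protein sequences were not used here.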

Additional observations from a re-analysis of the deposited data

Results flagged for a closer look

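In groups of 4 mice, a value stood far from the other 3 of its group by Dixon's gap-to-range test at 95% in 11 of 134 groups checked, where chance gives about 6.7. The groups share mice and genes, so their flags are not independent. Mc1r LKO mouse 182 stood apart for Lyve1 at 7.10 CPM (other Mc1r LKO mice 20.1 to 22.0), for Kdr at 22.7 CPM (30.9 to 31.6), for Pnldc1 at 3.99 CPM (13.1 to 14.9) and for the summed level of hepatocyte genes at 101281 CPM (76192 to 79634). Control mouse 159 stood apart for the ratio of Stab1 to Stab2 at 1.21 (other control mice 0.680 to 0.768) and for the ratio of Kdr to Flt1 at 7.08 (4.22 to 4.52). Control mouse 154 was high for the sum of pericentral endothelial genes at 40.9 CPM (32.5 to 33.8) and for the periportal gene Adgrg6 at 2.76 CPM (1.39 to 1.51). Control mouse 181 was low for the sum of platelet genes at 1.72 CPM (4.61 to 4.93). Relative to the pan-endothelial genes, Mc1r LKO mouse 141 was low for Kdr at 1.70 (1.90 to 1.92) and control mouse 193 for Gpr182 at 1.56 (1.65 to 1.66), both on the log2 scale.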

How the results depend on the processing

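None of the 10 genes passed an adjusted p under 0.05 in any alternative. At an unadjusted p under 0.05, 1 of the 10 passed with 1 surrogate variable (also with the fold limit of 0.25 on the log2 scale), and 0 to 1 with each mouse left out, for either limit. Among all genes, 17 passed the adjusted p with DESeq2, 8 with the likelihood ratio test and 1 without the filter, against 0. With 1 surrogate variable 1422 genes passed the unadjusted p, and with each mouse left out 674 to 1095 genes did. Without the filter 1140 genes passed both limits. Genes of the other lists past the unadjusted p numbered 6, 10 with 1 surrogate variable, 11 without the filter and 4 to 12 with each mouse left out. The 6 were 1 each of 33 pan-endothelial, 17 other sinusoidal, 8 periportal, 15 capillarization, 19 VEGF and Notch and 12 Kupffer cell genes. Of all genes tested, 6.72% passed this limit in the main fit. Genes with higher levels were 57.4% of those past the unadjusted p, 28.3% with library size alone, where the median of all genes was -0.06. The median r of the 10 genes was 0.13 without mouse 182 and -0.024 without the 2 farthest mice, and 5 pairs passed the adjusted p with library size alone and 1 as deviations from each genotype mean. The pericentral difference of -4.48 CPM was -5.55 with library size alone and -4.56 with upper quartile normalization, and -5.36 to -2.44 with each mouse left out. Log2 fold changes that crossed 0 with a mouse left out ranged from -0.21 to 0.0079 for Clec4g, -0.39 to 0.010 for Ldb2, -0.18 to 0.0075 for Slc16a7, -0.38 to 0.071 for Pnldc1, -0.19 to 0.047 for Flt4, -0.21 to 0.019 for Slc43a3, -0.24 to 0.078 for Kit, -0.34 to 0.21 for Adgrg6, -0.19 to 0.18 for Mecom (-0.012 with library size alone), -0.023 to 0.41 for Thbd, -0.24 to 0.043 for Wnt2, -0.15 to 0.54 for Wnt9b and -0.23 to 0.082 for Ntn4. An unadjusted p under 0.05 was lost with some mouse left out for Sox17, Bmp2, Itga9, Ly6a and Csf1r, and in no alternative for Shb. The cause was not tested. No paired analysis was possible because the genotypes share no mouse number. With 139 counts at the least for any of the 10 genes in a mouse, the number of mice limited precision.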

Other observations

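Markers of the other cells of the liver were measured in the same livers. Of 13 stellate cell genes 4 were higher and 9 were lower in Mc1r LKO livers (median log2 fold change -0.015), and Lrat and Dcn had log2 fold changes of -0.23 and 0.0088. Of 7 cholangiocyte genes 5 were tested and 5 were higher, with 0 past an unadjusted p under 0.05, and Krt19 ranged from 0.26 to 3.66 CPM in Mc1r LKO mice against 0.93 to 1.51 CPM in control mice. Krt7 was below the filter. The 5 hepatocyte genes tested were all higher, Alb by 0.11 and Apoa1 by 0.13 on the log2 scale. Of 5 erythroid genes, Hbb-bs and Hbb-bt among them, 5 were higher, with a median of 0.32, and reads of globin copies may be shared between them.

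Few genes of blood leukocytes passed the filter. Of the B cell, T and NK cell, dendritic cell and neutrophil lists, 2 of 6, 0 of 6, 2 of 5 and 2 of 5 genes did, and 0 of these had an unadjusted p under 0.05. The summed level of the B cell list was 20.9 to 87.6 CPM in control and 29.4 to 115 CPM in Mc1r LKO mice, mostly from the immunoglobulin gene Ighm (18.7 to 113 CPM). The defining genes Cd79a, Cd3e, Cd3d, Flt3 and Xcr1 had mean levels under 0.6 CPM in both genotypes, and Cd79b had 1.20 CPM in control and 0.710 CPM in Mc1r LKO mice. S100a8 and S100a9 had log2 fold changes of 0.53 and 0.39. Of 5 platelet genes 3 were tested, with Pf4 at 0.12 and Itga2b at -0.43 on the log2 scale, and Gp1bb had 0 counts in 8 of 8 mice.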
